A study of Mus musculus with 12 samples.

Results

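The 10 genes Fxyd5, Cd52, Coro1a, Lgals3, Cd9, Lyz2, Napsa, Ear2, Plac8 and Ly6c2 were described in bulk RNA-seq of CD206+ macrophages sorted from the borders of the mouse brain, where they line the leptomeninges and the spaces around vessels and are known as CNS-associated macrophages. They were picked by name from the 56735 gene names of the count table, as genes linked to a monocyte heritage, because of higher values in tdT- cells. That choice used the comparisons of tdT- with tdT+ cells, so the values below from those comparisons are a description without a test. All 10 genes were among the 13724 genes that passed the filter on low counts. Ly6c2 passed with 10 or more counts in 4 libraries, 2 of them tdT- and 2 vehicle.

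All mice carried the genotype Mrc1CreERT2/CreERT2:R26tdT/tdT, and all received tamoxifen. The inducible Cre is expressed from the locus of Mrc1, which encodes CD206, and recombination at the Rosa26 locus switches on the red reporter tdTomato (tdT). Cells that expressed CD206 at the time of tamoxifen and their progeny are therefore tdT+. Treatment began 4 weeks after tamoxifen and lasted 7 days, either with vehicle or with BLZ945 at 200 mg/kg, an inhibitor of the CSF-1 receptor on which macrophages depend, and cells were sorted from brain without choroid plexuses 8 weeks after treatment. The 3 groups of 4 libraries are tdT+ cells of vehicle mice, tdT+ cells of BLZ945 mice and tdT- cells of BLZ945 mice. The 4 mice of each treatment are labelled F1, F2, M1 and M2, the tdT+ and tdT- libraries of a BLZ945 mouse share its label, and the vehicle mice are other animals.

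Classical monocytes carry high surface Ly6C, leave the bone marrow through the blood and can become macrophages once they enter a tissue. They then lose much of their monocyte programme and take on genes of the resident macrophages. The line of CNS-associated macrophages in the leptomeninges and around vessels begins before birth and renews itself with little input from the blood. The tdT label separates cells of that resident line from cells that arrived unlabelled. A tdT- cell is not marked as blood-derived by itself, since unlabelled resident cells would look the same.

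The libraries held between 19969308 and 23395058 counts. A level of 3 counts, taken as the floor of detection in a single library, is between 1.28e-05% and 1.50e-05% of a library. The tdTomato row held 0 counts in all 12 libraries and could not be used to check the labels. The border macrophage genes Mrc1, Lyve1, Cd163, Pf4, Ms4a7, Cbr2, Folr2, Stab1 and Maf were present in every library, and their summed normalised count was 228879 to 293776 in BLZ945 tdT+ cells, 215615 to 230730 in vehicle cells and 87174 to 119505 in tdT- cells. The sum of 8 microglia genes was 143457 to 156508 in BLZ945 tdT+ cells, 116122 to 153017 in vehicle cells and 190509 to 350075 in tdT- cells. Fewer cells of a type and less RNA per cell cannot be told apart in bulk RNA.

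The tdT- library F2 stood apart from the other tdT- libraries. Its sum of 14 neutrophil genes was 479664, or 2.34% of its counts, against 6810 to 11298 in the other 3 tdT- libraries and 7557 to 22175 in the 8 tdT+ libraries. The neutrophil genes Ltf, Lcn2, Retnlg, Ly6g, Elane and Mpo were at 0 in the other tdT- libraries. In F2 they ran from 43.31 (Retnlg) to 44542 (Ltf). Of the 14 genes, 11 had their highest value of all 12 libraries in F2. Mmp9, Csf3r and Cxcr2 did not, with 4004, 3153 and 6.59 in F2. Each was higher in another tdT- library, at 5195 and 6009 in M1 and 13.39 in M2. Its sum of 12 classical monocyte genes was 55239 against 6785 to 11423, with Chil3 at 32358 in F2 and 0 in all other libraries. Chil3 thus made up most of that sum. Of the 12 genes, 8 had their highest value of all libraries in F2. Vcan was at 0 in every library, and Itga4 had its lowest value of all in F2 (494.3). The sum of 10 non-classical monocyte genes, 5711, lay inside the range of the other tdT- libraries of 3843 to 9228. Red blood cell genes summed to 37154 in F2 and to at most 100.1 in the other tdT- libraries, although BLZ945 tdT+ libraries reached 16049. The fold changes and calls of tdT- cells for the 10 genes are therefore given with and without F2.

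Among the 10 genes, 7, namely Fxyd5, Cd52, Coro1a, Lgals3, Cd9, Napsa and Ear2, had all 4 tdT- libraries above all 8 tdT+ libraries. These 7 were also the genes called higher in tdT- than in BLZ945 tdT+ cells, where a DESeq2 call required an adjusted p no higher than 0.05 together with a shrunken log2 fold change of 1 or more. By edgeR, which made fewer false calls on simulated data, 6 of the 7 were called and Ear2 was not. Of all genes, 1.19% were called higher and 1.06% lower there, and 4.56% had every tdT- library above every BLZ945 tdT+ library. Without F2 the same 7 genes were called, against 1.03% of all genes, and the same 7 did not overlap, against 6.59%. Plac8 was above all tdT+ libraries in 3 of 4 tdT- libraries and Ly6c2 in 2 of 4. Lyz2 was above in 0 of 4. None of the 10 genes was found in F2 alone among the tdT- libraries.

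**Figure D1:**
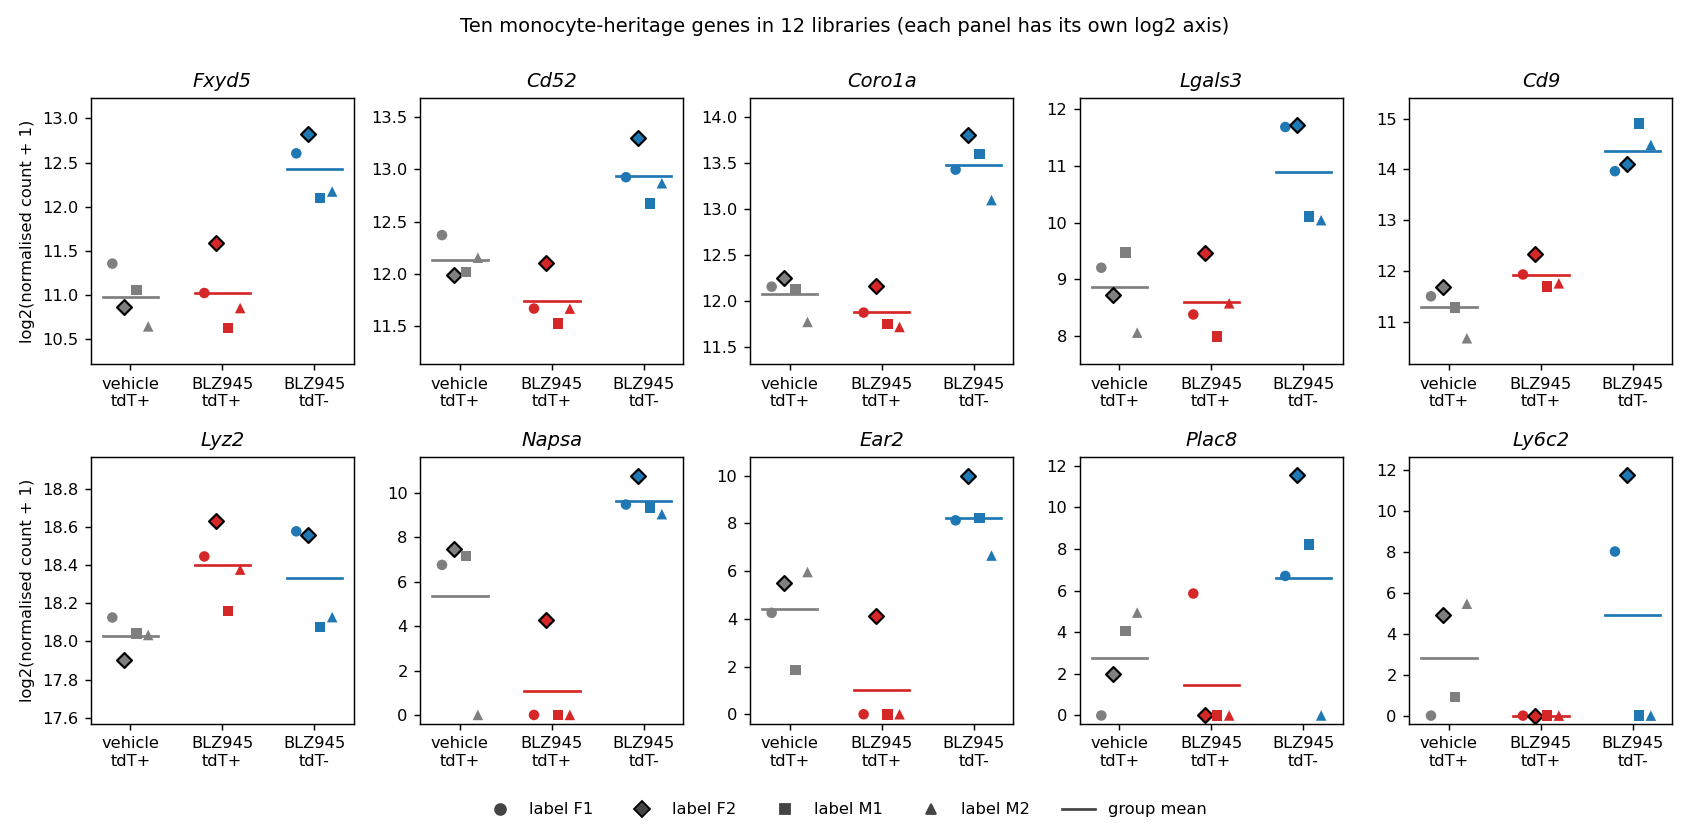
Each panel plots 1 gene as log2(normalised count + 1) on its own log2 axis, with 1 point per library, the 3 groups along the x axis, bars at the mean of the log2 values, and the label F2 outlined in black. The blue tdT- points of Fxyd5, Cd52, Coro1a, Lgals3, Cd9, Napsa and Ear2 lie above every grey and red tdT+ point, whereas Plac8 and Ly6c2 have tdT- points at 0.

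Against vehicle cells the tdT- libraries also lay above every library for the same 7 genes, with F2 (4.82% of all genes) and without it (7.34%). Calls were fewer there. Fxyd5, Coro1a, Lgals3, Cd9 and Ear2 were called higher with F2, against 1.48% of all genes, and the first 4 of these without F2, against 1.37% (and 1.28% called lower). By edgeR Fxyd5, Coro1a, Lgals3 and Cd9 were called and Ear2 was not. Both comparisons share the tdT- libraries, so they are not independent. With F2 included, the median shrunken log2 fold change over the 10 genes was 1.45 against BLZ945 tdT+ cells and 1.07 against vehicle cells, and over all genes it was 0.0010 and 0.0051.

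Fxyd5 (chr7:30732147-30741906 on GRCm39, minus strand) encodes dysadherin, a regulator of the sodium pump that also weakens cell adhesion. Its normalised counts in the tdT- libraries F1, F2, M1 and M2 were 6223, 7254, 4391 and 4611. In BLZ945 tdT+ libraries in the same order they were 2078, 3078, 1578 and 1846, and in vehicle libraries 2618, 1860, 2130 and 1598. The tdT- values are all above the tdT+ values, and F2 was the highest library in both BLZ945 groups. The shrunken log2 fold change relative to BLZ945 tdT+ cells was 1.31 ± 0.25 (SE) with F2 and 1.14 ± 0.26 without it. Against vehicle cells it was 1.38 ± 0.25 and 1.21 ± 0.26. Of the genes measured with it, H2-Aa, H2-Ab1 and H2-Eb1, which encode MHC class II chains, had the most similar pattern over the 12 libraries (Pearson's r of log2 normalised counts 0.98, 0.97 and 0.97). Such correlations over 12 libraries mostly follow the step between tdT- and tdT+ libraries and are given as a description.

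Cd52 (chr4:133809759-133822393, minus strand) encodes a short glycoprotein on the surface of lymphocytes and monocytes. The tdT- libraries held 7773, 10057, 6536 and 7468 normalised counts, the BLZ945 tdT+ libraries 3255, 4416, 2946 and 3253, and the vehicle libraries 5296, 4075, 4141 and 4559. F2 was the highest tdT- library, yet the lowest tdT- library still exceeded the highest vehicle library. Within each BLZ945 mouse the ratio of tdT- to tdT+ cells was nearly the same, 2.39, 2.28, 2.22 and 2.30 in F1, F2, M1 and M2. The log2 fold change relative to BLZ945 tdT+ cells was 1.16 ± 0.17 with F2 and 1.02 ± 0.16 without it. Against vehicle cells it was 0.76 ± 0.17 and 0.63 ± 0.16, below the fold threshold in both cases. Tmsb10, which encodes an actin-binding thymosin, was the gene most like it (r = 0.98), followed by Fxyd5 (0.93) and Cfl1 (0.92).

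Coro1a (chr7:126298945-126306959, minus strand) encodes coronin 1A, an actin regulator of white blood cells. It had 11021, 14317, 12414 and 8763 normalised counts in tdT- libraries, 3756, 4588, 3450 and 3370 in BLZ945 tdT+ libraries and 4567, 4878, 4472 and 3501 in vehicle libraries. The groups are far apart, and the ratio within a mouse ran from 2.60 in M2 to 3.60 in M1, with F2 at 3.12. The log2 fold change relative to BLZ945 tdT+ cells was 1.59 ± 0.17 and 1.46 ± 0.17 without F2, and against vehicle cells 1.38 ± 0.17 and 1.26 ± 0.17. An exon of Coro1a overlaps Bola2, which had a mean of 606.1 normalised counts, and the counting did not use strand. Among the other coronins, Coro1b, Coro1c, Coro2a and Coro7 passed the filter and were called in neither comparison of tdT- cells. Coro1b, for example, had 5942 to 6504 normalised counts in tdT- and 5903 to 7060 in BLZ945 tdT+ libraries, which overlap.

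Lgals3 (chr14:47605208-47623617, plus strand) encodes galectin-3, a sugar-binding protein that activated macrophages secrete. Its tdT- libraries fell into a pair of levels by mouse label, 3277 and 3345 normalised counts in F1 and F2 and 1103 and 1053 in M1 and M2. The BLZ945 tdT+ libraries held 333.1, 709.7, 254.3 and 381.8, and the vehicle libraries 589.5, 423.9, 708.1 and 266.8. F2 was barely above F1, and all 4 tdT- libraries were above the tdT+ libraries. The log2 fold change relative to BLZ945 tdT+ cells was 2.20 ± 0.48 with F2 and 1.86 ± 0.52 without it, and against vehicle cells 1.93 ± 0.49 and 1.58 ± 0.53. The ratio within a mouse was 9.84 in F1, 4.71 in F2, 4.34 in M1 and 2.76 in M2. Fxyd5 (r = 0.96), the annexin gene Anxa2 (0.95) and Mcub (0.94) had the most similar patterns. Of the galectins listed with it, Lgals1, Lgals8 and Lgals9 were called in neither comparison. Lgals1 had 5210 to 7620 normalised counts in tdT- and 8371 to 9414 in BLZ945 tdT+ libraries, so it lay lower without overlap (log2 fold change -0.43 ± 0.12).

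Cd9 (chr6:125437229-125471754, minus strand) encodes a tetraspanin that organises membrane proteins and is found on microglia as well as on monocyte-derived macrophages. Here F2 was not the highest tdT- library. The tdT- libraries held 15974, 17699, 30550 and 22853 normalised counts, the BLZ945 tdT+ libraries 3903, 5141, 3312 and 3458, and the vehicle libraries 2899, 3271, 2496 and 1635. The log2 fold change relative to BLZ945 tdT+ cells was 2.41 ± 0.23, and 2.50 ± 0.25 without F2. Against vehicle cells it was 3.05 ± 0.23, and 3.12 ± 0.25 without F2. Leaving out F2 thus raised both values slightly, which was so for no other called gene of the 10. The genes most like Cd9 were Siglech, Olfml3 and Selplg (r = 0.99 each), and Siglech and Olfml3 are on the microglia list.

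The sum of the microglia list moved with Cd9, but not every gene on it did. Of its 8 genes, P2ry12, Tmem119, Sall1, Siglech and Olfml3 were called higher in tdT- cells in both comparisons, with and without F2, and 0 were called lower. Of all genes, 1.19% were called higher against BLZ945 tdT+ cells and 1.48% against vehicle cells, F2 included. Gpr34 (log2 fold change 0.83 against BLZ945 tdT+ cells), P2ry13 (0.25) and Fcrls (-0.23) were not called. Fcrls lay lower without overlap, at 46213 to 68332 normalised counts in tdT- and 69972 to 74017 in BLZ945 tdT+ libraries. The sum over the list was 350075 in M1, 272002 in M2, 195574 in F1 and 190509 in F2, so that M1 and M2 led in both measures. The tetraspanin gene Cd81 behaved alike, with 42683, 39832, 84408 and 64584 normalised counts in the tdT- libraries F1, F2, M1 and M2 and 24234 to 27814 in BLZ945 tdT+ libraries. Of the other tetraspanins, Cd37, Cd53, Cd63, Cd82 and Cd151 were not called. The part of microglia RNA in the level of Cd9 was not tested.

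**Figure D2:**
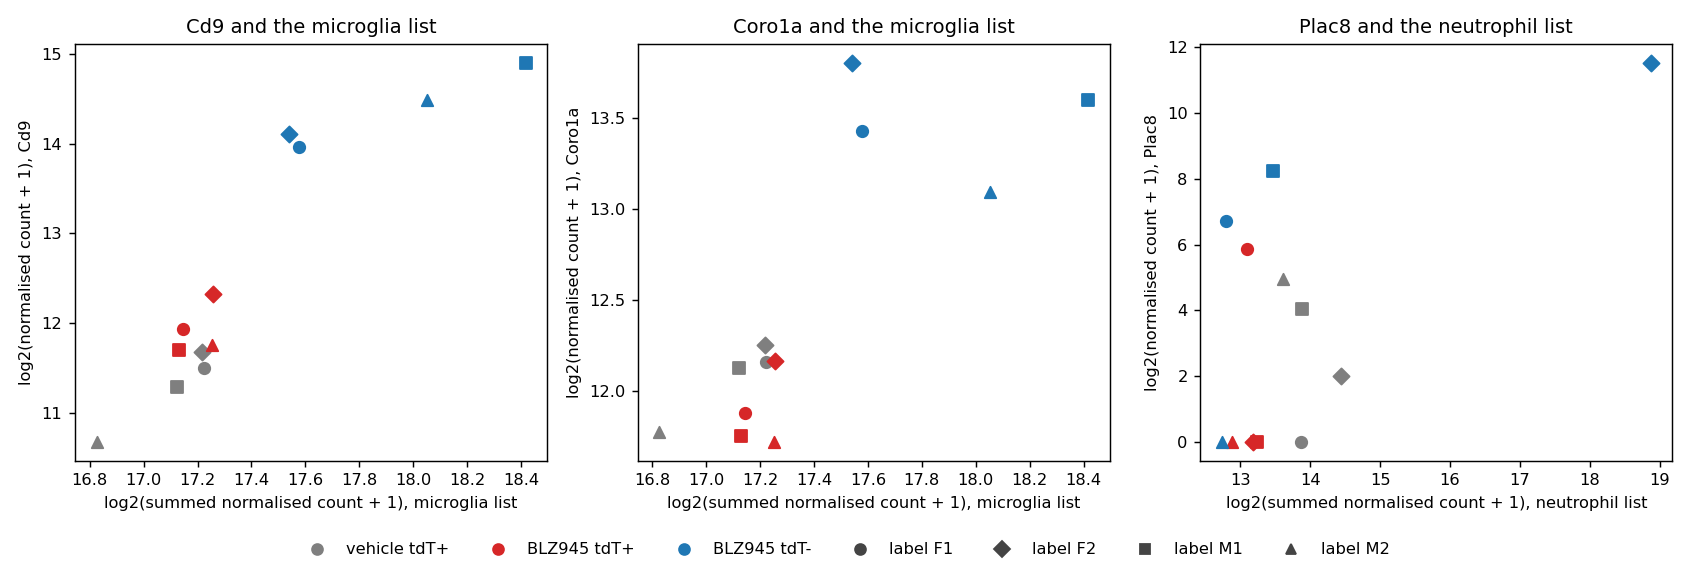
The 3 panels plot log2(normalised count + 1) of Cd9, Coro1a and Plac8 on the y axis against log2(summed normalised count + 1) of the microglia or neutrophil list on the x axis, with 1 point per library, colours for groups and shapes for mouse labels. Among the blue tdT- points Cd9 is highest where the microglia sum is highest (M1, then M2), Coro1a is highest in F2 instead, and the F2 point of Plac8 stands far to the right at the neutrophil sum of 479664.

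Napsa (chr7:44221804-44236286, plus strand) encodes the aspartic protease napsin A, which blood monocytes express. It was nearly confined to tdT- cells among BLZ945 libraries, with 712.5, 1746, 646.5 and 526.9 normalised counts in tdT- libraries and 18.43 in F2 and 0 in the other 3 tdT+ libraries. The vehicle libraries F1, F2 and M1 held 107.3, 176.3 and 142.0, and M2 held 0. All 4 tdT- libraries were above all tdT+ libraries, with F2 the highest at 2.78 times the mean of the other 3. The ratio of group means to BLZ945 tdT+ cells was 197.1 with F2 and 136.4 without it, and the shrunken log2 fold change 6.55 ± 2.14 and 5.32 ± 2.94. Both rest on 20 counts in the tdT+ library F2, without which that group was at 0 and the fitted value was 13.16, which has no meaning as a size. Against vehicle cells the ratio of means was 8.54 with F2 and 5.91 without it, and the unshrunken log2 fold change 3.09 and 2.56. The shrunken values of 0.07 ± 0.32 with F2 and 0.06 ± 0.33 without it were below the threshold. They reflect shrinkage of an uncertain estimate and not a difference near 0. An exon of Napsa is shared with Gm15396, which had a mean of 0.54 normalised counts. The genes most like it were the monocyte chemokine receptor gene Ccr2 (r = 0.93), Eng (0.91) and Nr4a1 (0.90), the last a gene on which non-classical monocytes depend.

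Ear2 (chr14:44340111-44340991, plus strand) encodes a ribonuclease of eosinophils that is also known from non-classical monocytes. The tdT- libraries held 278.5, 1004, 298.5 and 99.45 normalised counts, the BLZ945 tdT+ libraries 16.59 in F2 and 0 otherwise, and the vehicle libraries 18.05, 44.57, 2.60 and 61.29. All tdT- libraries were the highest, and F2 was 4.45 times the mean of the other 3. The ratio of group means to BLZ945 tdT+ cells was 101.3 with F2 and 54.4 without it, and to vehicle cells 13.3 and 7.13. The shrunken log2 fold change relative to BLZ945 tdT+ cells was 6.09 ± 1.39 with F2 and 4.77 ± 1.74 without it. It too rests on the tdT+ library F2, with 18 counts, without which the fitted value was 11.96 against a group at 0, and edgeR did not call it. Against vehicle cells it was 2.34 ± 2.36 with F2 and 0.12 ± 0.36 without it, and that call was also lost without any 1 of the tdT- libraries F1 (0.18) and M1 (0.16) or the vehicle libraries F1 (0.12), F2 (0.12), M1 (0.13) and M2 (0.12).

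Of the 50-base windows of Ear2 transcripts in GENCODE M21, 41.5% also occur in other genes, mostly Ear10 and Ear1, so reads from there were not counted as unique. Ear6, Ear10 and Ear14 were at 0 in all libraries, and Ear1 was above 0 in 1 vehicle library. The eosinophil list gave 123.1 to 490.4 in the other tdT- libraries and 681.6 in F2, against 64.6 to 1107 in BLZ945 tdT+ libraries, and 236.3 to 394.8 in vehicle libraries. Of its 6 genes, Epx and Il5ra were at 0 in all 12 libraries and Prg2 was above 0 in tdT- F2 alone, at 43.31 normalised counts. Siglecf had 123.1, 312.6, 389.2 and 168.3 normalised counts in tdT- libraries, all above the 29.74 to 54.38 of BLZ945 tdT+ libraries and overlapping the 0 to 124.3 of vehicle libraries. Ccr3 and Alox15 overlapped between the tdT- and tdT+ libraries of BLZ945 mice, and the part of eosinophil RNA in the level of Ear2 was not tested. The genes most like Ear2 were Bcl2a1d (r = 0.94), Tmsb10 (0.93) and Cd52 (0.92).

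Plac8 (chr5:100701591-100720111, minus strand) encodes a small cysteine-rich protein of monocytes and granulocytes. Its tdT- libraries held 103.3, 2957, 298.5 and 0 normalised counts, from 99, 3141, 283 and 0 counts. BLZ945 tdT+ libraries held 57.05 in F1 and 0 in F2, M1 and M2, and vehicle libraries 0, 2.97, 15.58 and 29.75. F2 was 22.1 times the mean of the other 3 tdT- libraries, a ratio that 0.989% of all tested genes reached or passed. F1 and M1 were still above every tdT+ library, while M2 was at 0. The ratio of group means to BLZ945 tdT+ cells was 58.9 with F2 and 9.39 without it, and to vehicle cells 69.5 and 11.1. The shrunken log2 fold change stayed at 0.03 ± 0.30 and 0.04 ± 0.31 against BLZ945 tdT+ cells, and the unshrunken values were 5.88 and 3.22. The genes most like Plac8 were Taldo1 (r = 0.92), Pcna (0.86) and Adssl1 (0.85).

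Ly6c2 (chr15:74980007-74983819, minus strand) encodes the Ly6C antigen used to sort classical monocytes. Its tdT- libraries held 258.7, 3420, 0 and 0 normalised counts, the 4 BLZ945 tdT+ libraries 0, and the vehicle libraries 0, 29.71, 0.87 and 43.27. F2 was 39.7 times the mean of the other 3, a ratio reached by 0.577% of all tested genes. F1 was the only other tdT- library with Ly6c2, and M1 and M2 were at 0. Against a floor of 3 counts per library, the mean of tdT- cells was at least 310.0-fold higher than that of BLZ945 tdT+ cells with F2 and at least 29.1-fold higher without it, a value that then rests on F1. Against vehicle cells the ratio was 49.8 with F2 and 4.67 without it. Actg1 (r = 0.87), Thrap3 (0.86) and Cdc42bpa (0.85) had the most similar patterns.

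The neighbouring gene Ly6c1, which endothelial and some lymphoid cells express, has a coding sequence of the same length, 393 bases, that differs from that of Ly6c2 at 9 bases (97.7% identity) in GENCODE M21. The first 90 coding bases are shown because they hold 6 of these differences, in capitals, by which reads of both genes can be told apart.
Ly6c2: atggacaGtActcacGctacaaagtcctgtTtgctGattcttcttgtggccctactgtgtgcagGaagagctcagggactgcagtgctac
Ly6c1: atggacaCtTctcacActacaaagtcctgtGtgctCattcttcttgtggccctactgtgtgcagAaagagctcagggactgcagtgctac
Of the 50-base windows of Ly6c2 transcripts, 14.5% occur in other genes, most often in Ly6c1. Ly6c1 itself had 15.64 normalised counts in the BLZ945 tdT+ library F1, 0.94 in the tdT- library F2 and 0 elsewhere, so that the values of Ly6c2 in F1 and F2 were not accompanied by Ly6c1. Of the other Ly6 genes, the neutrophil gene Ly6g had 234.4 normalised counts in the tdT- library F2 and 0 in all others, and Ly6e had 34724 to 61742 in tdT- and 37072 to 52482 in BLZ945 tdT+ libraries.

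Lyz2 (chr10:117113236-117118226, minus strand) encodes lysozyme M, which monocytes, macrophages and neutrophils make in bulk. It took between 1.21% and 1.92% of all counts and was not higher in tdT- than in BLZ945 tdT+ cells. Its normalised counts were 391139, 386593, 276071 and 286308 in tdT- libraries, 356977, 405565, 292796 and 340288 in BLZ945 tdT+ libraries and 285930, 245268, 269808 and 268306 in vehicle libraries. F2 was below F1, the tdT- and tdT+ libraries of BLZ945 mice overlap, and 3 of 4 tdT- libraries were above the highest vehicle library. The log2 fold change relative to BLZ945 tdT+ cells was -0.05 ± 0.12 with F2 and -0.12 ± 0.12 without it, and against vehicle cells 0.29 ± 0.12 and 0.22 ± 0.12. Its closest patterns were weaker than those of the other genes, Zfp809 and BC049715 at r = 0.85 and Ntrk2 at 0.83.

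Lyz1, the gut lysozyme gene beside Lyz2, has a coding sequence of the same 444 bases that differs at 22 of them. Bases 43 to 132 are shown, with the 13 differing bases in capitals, since reads that lie between them cannot be assigned to either gene.
Lyz2: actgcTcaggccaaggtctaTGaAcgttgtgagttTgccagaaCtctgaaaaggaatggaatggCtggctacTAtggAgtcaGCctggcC
Lyz1: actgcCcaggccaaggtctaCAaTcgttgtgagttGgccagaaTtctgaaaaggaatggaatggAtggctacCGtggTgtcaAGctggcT
Of the 50-base windows of Lyz2, 15.4% are shared with Lyz1. Lyz1 had 111.8 to 1142 normalised counts per library and was called in none of the 3 comparisons.

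**Figure D3:**
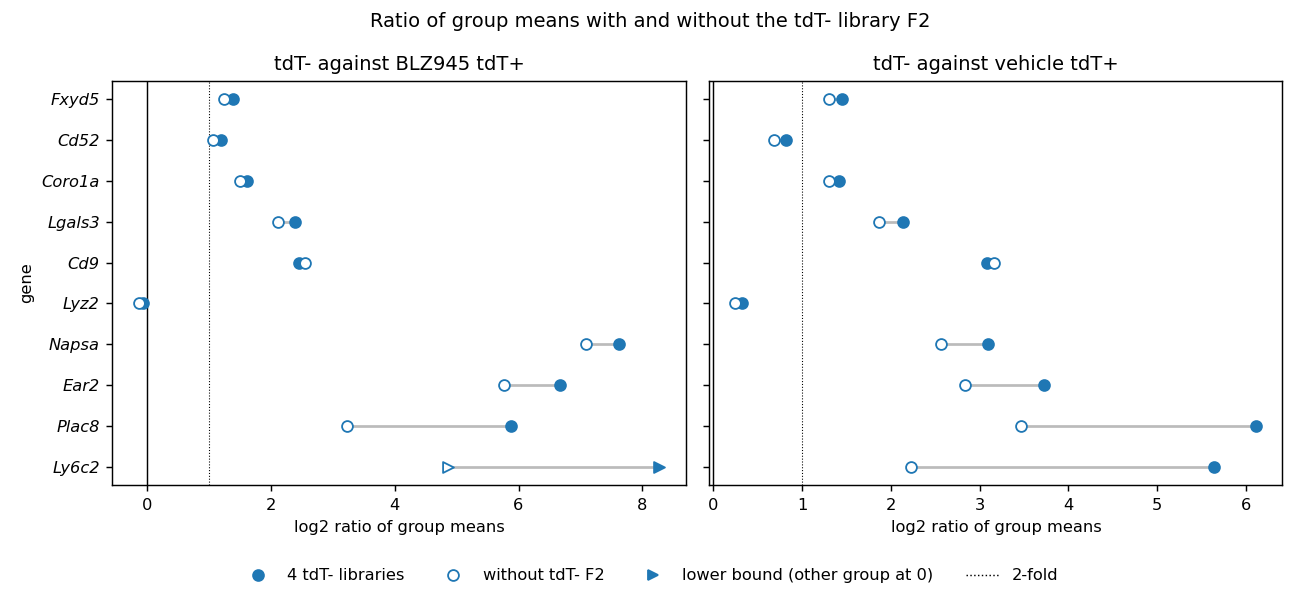
The x axis gives the log2 ratio of group means of normalised counts for each gene on the y axis, with the 4 tdT- libraries (filled) and without F2 (open), against BLZ945 tdT+ cells (left) and vehicle cells (right). The 2 points nearly coincide for Fxyd5, Cd52, Coro1a, Cd9 and Lyz2, and they lie furthest apart for Plac8 (58.9 against 9.39 in the left panel) and Ly6c2, whose triangles on the left are lower bounds.

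The 10 genes thus spread over a wide range in how far F2 exceeded the other tdT- libraries. The ratio of F2 to the mean of the other 3 was 0.77 for Cd9, 1.22 for Lyz2, 1.33 for Coro1a, 1.38 for Cd52, 1.43 for Fxyd5, 1.85 for Lgals3, 2.78 for Napsa, 4.45 for Ear2, 22.1 for Plac8 and 39.7 for Ly6c2. Over all tested genes its median was 0.95, and 10% of genes were above 2.36. Napsa, Ear2, Plac8 and Ly6c2 were above that level, and the other 6 genes were not. For the marker lists the same ratio was 675.5 for red blood cell, 57.1 for neutrophil, 34.8 for T and NK cell, 6.16 for classical monocyte, 2.62 for eosinophil, 2.32 for endothelial, 1.78 for dendritic cell, 0.99 for non-classical monocyte, 0.84 for B cell, 0.79 for border macrophage and 0.70 for microglia genes. The T and NK cell sum of F2 came from Nkg7 alone, at 679.8 normalised counts. Cd3e, Cd3d, Cd3g, Cd8a, Ncr1 and Klrb1c were at 0 in that library. Chil3 gave 32358 of the 55239 normalised counts of the classical monocyte list in F2. The part of RNA of the listed cell types in the F2 values of Plac8 and Ly6c2 was not tested. Without F2 the neutrophil sum of the tdT- libraries lay in the range of the tdT+ libraries or below it. Outside tdT- F2 that sum was mostly Mmp9 and Csf3r, at 4799 and 2286 of 7096 in tdT- F1 and 20264 and 1906 of 22175 in vehicle F2. Mmp9 was called lower in tdT- than in vehicle cells (log2 fold change -1.71 ± 0.21). The sum therefore does not gauge neutrophil RNA in those libraries.

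**Figure D4:**
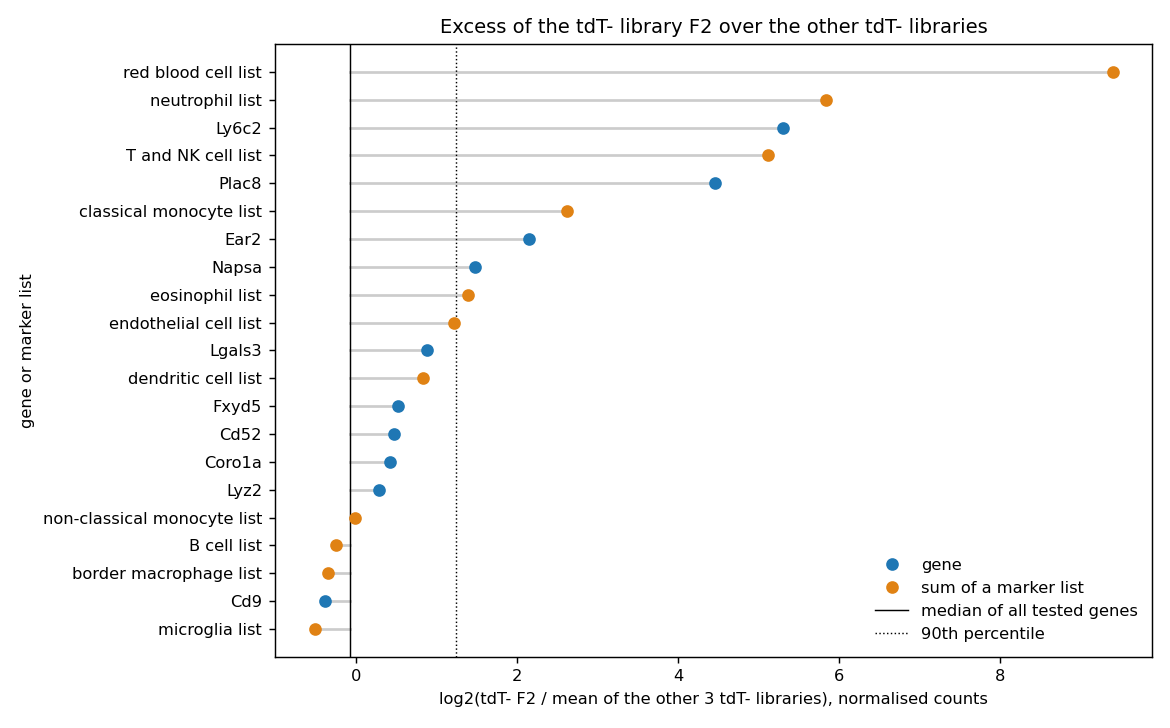
The x axis gives log2 of the ratio between the tdT- library F2 and the mean of the other 3 tdT- libraries for each gene (blue) and for the sum of each marker list (orange), with the median of all tested genes as a solid line and their 90th percentile as a dotted line. Ly6c2 (39.7) and Plac8 (22.1) lie among the red blood cell (675.5), neutrophil (57.1), T and NK cell (34.8) and classical monocyte (6.16) lists, whereas Fxyd5, Cd52, Coro1a, Lgals3, Lyz2 and Cd9 lie left of the dotted line. The T and NK cell sum of F2 is Nkg7 alone.

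Compared within each BLZ945 mouse, Fxyd5, Cd52, Coro1a, Lgals3, Cd9, Napsa and Ear2 were higher in tdT- than in tdT+ cells of 4 of 4 mice. The ratio was 2.36 to 2.995 for Fxyd5, 3.44 to 9.22 for Cd9, at least 94.8 for Napsa and at least 31.6 for Ear2 where tdT+ libraries without counts were set to 3 counts. Mouse F2 did not have the highest ratio for any of these 7 genes. Its tdT+ library was, however, the highest BLZ945 tdT+ library for all 7, which lowers its ratios. For Napsa and Ear2 the ratios of F1, M1 and M2 rest on tdT+ libraries set to 3 counts. For Plac8 the ratio was 1.81 in F1, at least 1070 in F2 and at least 97.0 in M1, and for Ly6c2 it was at least 93.7 in F1 and at least 1237 in F2. No fold can be given for Plac8 in M2 or for Ly6c2 in M1 and M2, where both libraries were at 0.

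**Figure D5:**
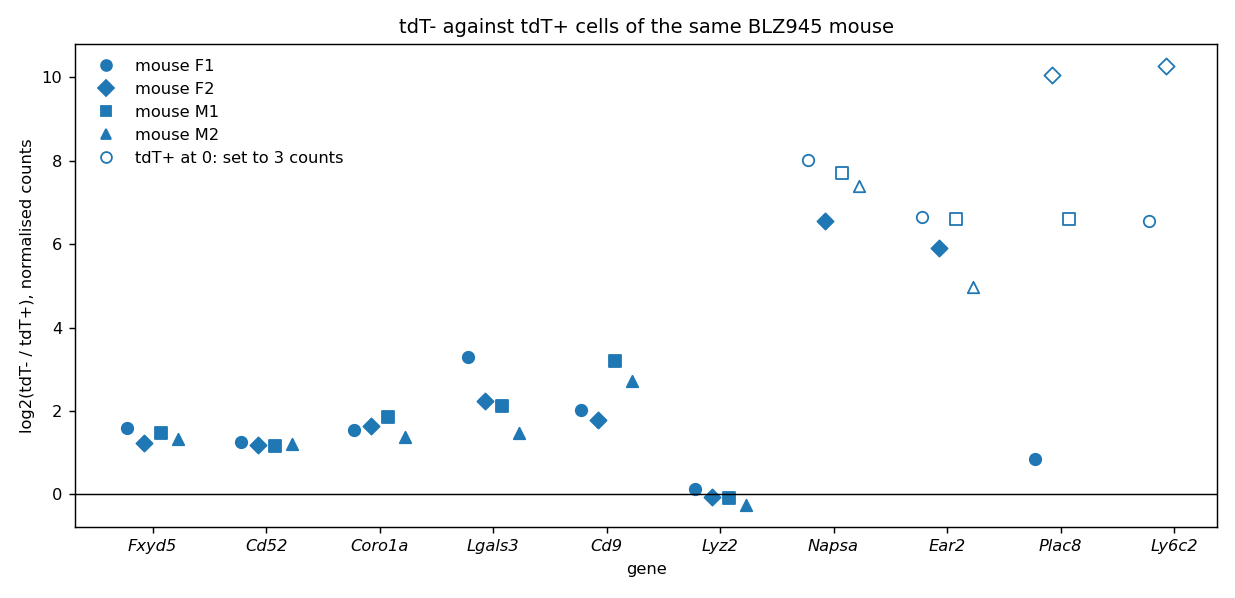
The y axis gives log2 of the tdT- over the tdT+ normalised count in the same BLZ945 mouse for each gene on the x axis, with 1 symbol per mouse and open symbols where the tdT+ library was at 0 and was set to 3 counts. All 4 mice are above 0 for 7 genes, the points of Lyz2 lie around 0, and F2 leads only for Plac8 and Ly6c2. Pairs at 0 in both libraries are left out.

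In the levels per kilobase of exon, which allow genes to be set side by side, the order of the tdT- means was Lyz2 (254580 normalised counts per kb), Cd9 (10650), Cd52 (6705), Coro1a (4178), Fxyd5 (1341), Lgals3 (1181), Ear2 (584.2), Plac8 (527.5), Napsa (341.4) and Ly6c2 (335.7). Lyz2 and Cd9 did not overlap over the 4 libraries, nor did Cd52 and Coro1a or Coro1a and Fxyd5. The ranges of Cd9 and Cd52 overlapped, as did those of all neighbours from Fxyd5 downwards. Without F2 the means of Plac8 and Ly6c2 were 84.1 and 31.5 per kb, the lowest of the 10, with Napsa at 236.3 and Ear2 at 313.6.

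The difference between the tdT+ cells of BLZ945 and of vehicle mice was not what the genes were picked for, and it was tested. It shares the BLZ945 tdT+ libraries with the comparison they were picked for, so the test is not independent of the choice. None of the 10 genes was called there by DESeq2 or by edgeR, against 0.168% of all genes in DESeq2, and 6 of 10 had an unadjusted p below 0.05 in DESeq2 and 4 in edgeR, against 8.13% and 6.95% of all genes. Lyz2 and Cd9 had every BLZ945 library above every vehicle library, which 6.72% of all genes had in either direction. For Lyz2 the shrunken log2 fold change was 0.33 ± 0.13 (DESeq2 adjusted p = 0.127) with an unshrunken 95% interval of 0.14 to 0.63, and for Cd9 it was 0.40 ± 0.29 (DESeq2 adjusted p = 0.249) with an interval of 0.17 to 1.07. Neither difference passed the adjustment.

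Fxyd5, Coro1a and Lgals3 overlapped between the tdT+ groups, with 95% intervals of the unshrunken log2 difference of -0.41 to 0.54, -0.53 to 0.13 and -1.15 to 0.66. Cd52 was lower in BLZ945 cells by an interval of -0.71 to -0.05 without passing (DESeq2 adjusted p = 0.457). For the sparse genes the data set little limit. The interval for Plac8 ran from -5.12 to 5.6, that for Napsa from -8.13 to -0.92 (DESeq2 adjusted p = 0.349) and that for Ear2 from -5.49 to -0.35 (DESeq2 adjusted p = 0.472). Ly6c2 was at 0 in all BLZ945 tdT+ libraries, which puts the vehicle mean at least 6.41-fold higher by a floor of 3 counts per library. Its DESeq2 adjusted p of 1.67e-06 came with a shrunken log2 fold change of -0.0040, and edgeR gave an adjusted p of 0.805.

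Other monocyte genes were described from a list of 12 classical and 10 non-classical marker genes chosen, like the 10 genes, with earlier results of these data known. Of the 9 classical genes that passed the filter, Ccr2, S100a4 and S100a6 were called higher in tdT- than in BLZ945 tdT+ cells and 0 were called lower, with a median unshrunken log2 fold change of 1.51 over the 9 and 0.0036 over all genes, F2 included. Ccr2, the receptor that brings monocytes into tissue, had 6288, 12013, 5226 and 3076 normalised counts in the tdT- libraries F1, F2, M1 and M2, all above the 847.0 to 1981 of BLZ945 tdT+ libraries. Its log2 fold change was 2.33 ± 0.40 with F2 and 1.86 without it. S100a6 had a log2 fold change of 2.87 ± 0.76 with F2 and 1.84 without it, and both were called either way.

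S100a4 was not called without F2 (log2 fold change 2.33 ± 1.32 with F2 and 0.18 without it), by edgeR, or without tdT- F1 (0.25) or BLZ945 tdT+ F1 (0.16) or M2 (0.15). Ifitm6, an interferon-induced membrane protein gene, was called lower without F2 (-1.16, against 1.27% of all genes called lower), with 1260 normalised counts in F2 and 41.12 to 95.98 in the other tdT- libraries. Chil3, Vcan and Hp did not pass the filter, and Hp had 3214 normalised counts in F2 and at most 130.8 in any other library. Of the 10 non-classical genes, Gngt2 was called higher with F2 (1.57 ± 0.33) and without it (1.51). Eno3 was not called with F2 (1.15 ± 0.74) but was without it (1.33). Eno3 was also called with no filter on low counts (1.26) and without BLZ945 tdT+ F2 (1.82), so that change was not particular to tdT- F2. The median unshrunken log2 fold change over the 10 was 1.88 with F2 included. Gngt2 had 1653 to 2598 normalised counts in tdT- and 417.4 to 1106 in BLZ945 tdT+ libraries, which do not overlap.

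Against vehicle cells, Ccr2 (1.02 ± 0.42) and S100a6 (2.74 ± 0.77) were called higher of the classical list, and S100a6 alone without F2. Ccr2 (0.53 without F2) also lost that call by edgeR, with TMM factors, with no filter, and without vehicle F1 (0.86) or M2 (0.73), BLZ945 tdT+ F1 (0.74) or tdT- F1 (0.74). Eno3 (1.46 ± 0.68) and Gngt2 (1.68 ± 0.33) were called higher of the non-classical list both with and without F2. Eno3 lost that call by edgeR and without vehicle F2 (1.02), M1 (1.07) or M2 (1.29) or tdT- F1 (0.96) or M1 (1.17). Between BLZ945 and vehicle tdT+ cells, 0 of 9 classical and 0 of 10 non-classical genes were called by DESeq2 or by edgeR, and 2 classical genes and 0 non-classical genes had an unadjusted p below 0.05 by either tool.

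Promoter sequences before the start site were available for 8 of the 10 genes in RefSeq on GRCm38.p6, all but Cd52 and Napsa. The 150 bases before the first listed start were searched on both strands for GAGGAA (a core bound by PU.1, the master factor of myeloid cells), GGAAGT (a core of the ETS family, which shares letters with the first where GAGGAAGT occurs) and TTGCNNAA (a C/EBP-type core). Of 32841 promoters of that length, 14.5% held the first, 13.6% the second and 5.46% the third, and 29.1% held any. Fxyd5 held GAGGAA, Lyz2 held GGAAGT, Ear2 held TTGCNNAA, Plac8 held GAGGAA at 2 places and Ly6c2 held the overlapping pair, whereas Coro1a, Lgals3 and Cd9 held none of the 3. The windows of Fxyd5, which was high in all tdT- libraries, and of Plac8 and Ly6c2, which were highest in F2, are shown with the matches in capitals, at chr7:31042332-31042481, chr5:100572206-100572355 and chr15:75111972-75112121 on the minus strand.
Fxyd5: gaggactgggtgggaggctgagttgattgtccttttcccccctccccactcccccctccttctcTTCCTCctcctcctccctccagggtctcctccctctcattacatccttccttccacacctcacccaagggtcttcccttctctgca
Plac8: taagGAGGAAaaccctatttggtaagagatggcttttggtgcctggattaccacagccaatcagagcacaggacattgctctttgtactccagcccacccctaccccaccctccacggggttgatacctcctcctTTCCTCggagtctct
Ly6c2: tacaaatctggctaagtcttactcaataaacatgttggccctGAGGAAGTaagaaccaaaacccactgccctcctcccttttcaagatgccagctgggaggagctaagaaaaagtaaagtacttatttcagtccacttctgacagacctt
A match is a run of letters and not a shown binding site.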

How the data were processed

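RNA of sorted cells was amplified from about 500 pg with a SMART-Seq protocol, so counts are not independent molecules, and floors cover counting error only. The deposited values are raw counts per gene symbol, which the authors made with STAR 2.7.11a and featureCounts 2.0.6, counting exon reads on a reduced GENCODE M33 (GRCm39) that also held tdTomato, without strand or multi-mapping reads, per the file headers and labels. All 12 columns were assigned by library name, and 0 were left over. A vehicle column with the library number of M2 but the label M1 was assigned by number. The deposited gene lengths gave levels per kb.

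A gene was dropped where 75% of libraries or more held under 10 counts. In R 4.3.3, DESeq2 1.42.0 (two-sided Wald test, group as the only term, 12 libraries) and apeglm 1.24.0 gave log2 fold changes, called where the Benjamini-Hochberg adjusted p did not exceed 0.05 and the size reached 1, as in the study's methods. The quasi-likelihood test of edgeR 4.0.16 was an alternative. On simulated data with known changes DESeq2 made more false calls than its threshold allows and edgeR made fewer, so edgeR calls stand beside those of DESeq2. Normalised counts are counts over size factors. The genes and lists were chosen with earlier results of these data known. Named besides them are the 3 genes most like each by Pearson's r of log2(normalised count + 1) among genes with a mean of at least 100, members of their families, and listed genes that were called. The overlap-free counts, F2 ratios and within-mouse ratios have no test. Transcript windows came from GENCODE M21.

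The tdT+ and tdT- libraries of a BLZ945 mouse are paired by its label. The deviations of same-mouse libraries from their group means correlated across 9591 genes at r = 0.012 to 0.037. Between BLZ945 tdT+ and vehicle libraries, which share only a label, the same correlation was 0.018 to 0.067. The pairing therefore rests on the labels and could not be checked from these values. Replicates in the groups are separate mice, and over 18 replicate pairs chi-square divided by its degrees of freedom was never below 48.7.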

Additional observations from a re-analysis of the deposited data

Results flagged for a closer look

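A library was held apart when its gap to the nearest of the other 3 in its group was a larger share of the group's range than Dixon's critical value for 4 samples. Of 62 groups of 4 examined, 12 passed. Chance alone passes about 1 in 20 independent groups, but these share libraries, F2 was known beforehand to stand apart, and 3 libraries at 0 give a share of 1 by construction, so the flags are a description. In tdT- cells F2 was the library held apart for Napsa (0.848), Plac8 (0.899), Ly6c2 (0.924) and the sum of the classical monocyte list (0.904). The sums of the neutrophil (0.991), T and NK cell (0.920) and red blood cell lists (0.998) also stood apart in tdT- F2. There the T and NK cell sum was Nkg7 alone.

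Among BLZ945 tdT+ libraries the share of the range was 1 for Napsa and Ear2, where F2 held 18.43 and 16.59 normalised counts and the other libraries 0, and 1 for Plac8, where F1 held 57.05. The endothelial list stood apart in vehicle (0.836) and BLZ945 tdT+ cells (0.870), with sums of at most 183.5. Their causes were not tested.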

How the results depend on the processing

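Counts of calls and the fold changes of the 10 genes were recomputed under up to 17 alternative settings, 16 for tdT- against vehicle cells, which come from other mice and have no block. The number of the 10 genes called against BLZ945 tdT+ cells was 7 in each fit that left out a library and with the mouse as a block, and 6 with edgeR, which did not call Ear2. Against vehicle cells it was 4 to 6 without single libraries and 4 with edgeR; Ear2 lost its call in 10 of 16 settings and Napsa gained one without the BLZ945 tdT+ library F2 (2.23). With unshrunken fold changes Ly6c2 was called against BLZ945 tdT+ cells (25.32) and, as the 1 gene of the 10, in BLZ945 tdT+ against vehicle cells (-21.22), estimates without a meaning in size where a group is at 0. Over all genes, the calls of 309, 350 and 23 in the order of the comparisons became 487, 544 and 67 unshrunken. The last became 7 with edgeR, 45 with no filter and 57 with the replicate label as a block, in which same-labelled vehicle and BLZ945 mice share only a label. Leaving out single libraries gave 262 to 364, 311 to 382 and 17 to 34. Of the listed monocyte genes 4, 4 and 0 were called. Single libraries left out gave 3 to 7, 2 to 5 and 0 to 1, edgeR gave 2 against vehicle cells, and unshrunken values and the block gave 1 between the tdT+ groups. No called fold change of the 10 genes changed its sign, while the listed gene Ifitm6 went from 0.07 to a called -1.16 without tdT- F2. Marker sums, within-mouse ratios, levels per kb, correlations and intervals were not recomputed. The groups of 4 and the sparse counts of Plac8 and Ly6c2, at 0 in several libraries, limit what can be said of them.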
